A study of Mus musculus with 8 samples.

Results

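The Hox genes of the 4 mouse clusters are described here in blood stem cells exposed to eltrombopag. They were taken from the platform annotation as every symbol made of Hox, a cluster letter from a to d and a paralog number, with nothing after it. There were 33 such genes among the 19505 genes named on the arrays, and the RefSeq table of mouse genes holds 39 with symbols of this form. The measured ones were 8 genes of the Hoxa cluster, 9 of Hoxb, 9 of Hoxc and 7 of Hoxd. The 6 others were not analysed here.

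Hematopoietic stem cells came from the bone marrow of mice aged 6 to 10 weeks. They had been sorted as cells without lineage antigens that carried Sca-1, c-Kit and CD150 and lacked CD48. In both groups the cells were kept in Myelocult medium with stem cell factor at 100 ng/ml and the antimicrobial Primocin. The vehicle group (NT in the titles, 4 arrays) received sterile water and the eltrombopag group (EP, 4 arrays) received eltrombopag at 10 µg/ml, both for 16 h. Eltrombopag is an oral agonist of the human thrombopoietin receptor that also binds iron. The labels used here give no strain or genotype. They call the arrays biological replicates and number them 1 to 4 in each group, without saying how animals were divided or pooled among them. The p-values therefore measure the spread between these arrays, which may be technical.

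Hox genes encode homeodomain transcription factors that give cells along the body axis their regional identity. They lie in 4 clusters, and genes of the same paralog number in different clusters descend from one ancestral gene. In blood, genes of the Hoxa and Hoxb clusters are known to be active in stem and progenitor cells and to be shut down as cells mature, whereas the Hoxd cluster is known as largely silent. Hox proteins bind DNA together with the cofactors of the PBX and MEIS families. Trithorax-type complexes hold the clusters open and Polycomb complexes hold them closed.

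Several genes have RefSeq promoter windows that carry letters which Hox and PBX proteins are known to recognise together, and these are shown because Hox proteins are known to act on Hox genes. Of the 33 genes, 17 had an entry in the RefSeq promoter table (GRCm38.p6), with 19 windows in all. In the 250 bases before each start, 4 motifs were searched on both strands: TGATNNAT (the composite of PBX and Hox proteins), TGACAG (MEIS proteins), CCAAT and TATAAA. The composite TGATNNAT was found in 4 of the 19 windows, against 7.68% of all 32851 windows in the table. TGACAG was found in 2 windows (15.9% of all windows), CCAAT in 12 (33.8%) and TATAAA in 3 (12.4%). The median GC content was 60.4% for the Hox windows and 52.4% for all windows. The 4 windows with TGATNNAT, of Hoxa2, Hoxb1, Hoxb8 and Hoxd11, are printed 5′ to 3′ on the gene's strand, followed by those of Hoxa6 and Hoxa10, the genes with the highest array values. Capitals mark the letters of any of the 4 motifs, and motifs can overlap or adjoin:
Hoxa2 (chr6:52164832-52165081, minus strand): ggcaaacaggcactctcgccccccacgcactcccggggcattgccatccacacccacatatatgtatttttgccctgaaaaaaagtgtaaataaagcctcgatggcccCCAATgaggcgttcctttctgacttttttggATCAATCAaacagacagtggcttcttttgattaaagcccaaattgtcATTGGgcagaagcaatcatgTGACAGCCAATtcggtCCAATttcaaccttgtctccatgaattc
Hoxb1 (chr11:96365508-96365757, plus strand): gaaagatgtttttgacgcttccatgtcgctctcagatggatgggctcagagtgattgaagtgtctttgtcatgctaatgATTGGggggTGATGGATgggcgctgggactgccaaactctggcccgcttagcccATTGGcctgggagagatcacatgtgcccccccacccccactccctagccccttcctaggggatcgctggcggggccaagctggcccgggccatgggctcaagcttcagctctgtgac
Hoxb8 (chr11:96281655-96281904, plus strand): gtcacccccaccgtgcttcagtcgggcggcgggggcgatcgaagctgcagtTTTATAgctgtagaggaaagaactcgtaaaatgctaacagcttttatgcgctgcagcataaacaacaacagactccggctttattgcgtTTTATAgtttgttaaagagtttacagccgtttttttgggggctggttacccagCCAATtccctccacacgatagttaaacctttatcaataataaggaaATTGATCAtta
Hoxd11 (chr2:74682073-74682322, plus strand): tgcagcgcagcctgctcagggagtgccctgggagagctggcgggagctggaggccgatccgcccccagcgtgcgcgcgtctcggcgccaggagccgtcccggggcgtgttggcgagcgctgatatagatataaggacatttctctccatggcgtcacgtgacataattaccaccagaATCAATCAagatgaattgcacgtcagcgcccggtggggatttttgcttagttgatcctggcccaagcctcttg
Hoxa6 (chr6:52208673-52208922, minus strand): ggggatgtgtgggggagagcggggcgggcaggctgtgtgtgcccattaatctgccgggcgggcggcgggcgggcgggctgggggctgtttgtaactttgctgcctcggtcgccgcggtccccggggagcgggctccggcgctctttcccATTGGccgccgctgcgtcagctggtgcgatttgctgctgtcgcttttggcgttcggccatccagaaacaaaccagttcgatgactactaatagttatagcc
Hoxa10 (chr6:52234940-52235189, minus strand): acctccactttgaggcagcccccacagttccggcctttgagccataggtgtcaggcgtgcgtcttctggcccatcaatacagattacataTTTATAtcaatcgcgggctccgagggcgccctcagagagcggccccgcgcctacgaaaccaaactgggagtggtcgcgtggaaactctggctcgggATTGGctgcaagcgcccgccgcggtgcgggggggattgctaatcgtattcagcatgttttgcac
A match is a run of letters and was not tested as a binding site. The Hoxd11 window belongs to 1 of 2 starts listed for that gene, and the Hoxa10 window to 1 of 2 listed for it.

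Transcripts were measured on Affymetrix arrays as log2 expression values, 1 per probe set, so a step of 1 is a 2-fold difference. Values of different probe sets depend on how well each probe binds as well as on the amount of transcript. The order of genes given here is therefore an order of array values and not of transcript numbers. To mark the dim end, the olfactory and vomeronasal receptor genes, 1410 genes that belong to sensory neurons, were used as a reference. The 95th percentile of their means was 5.69, and a gene with a mean over all 8 arrays above 5.69 is called above the dim reference. Of all genes, 65.1% lay above it.

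Above the dim reference lay 17 of the 33 Hox genes, and their share was high in 2 clusters and low in the other 2. They were 7 of 8 Hoxa genes, 7 of 9 Hoxb genes, 3 of 9 Hoxc genes and 0 of 7 Hoxd genes. The median of the gene means was 7.53 in Hoxa and 6.21 in Hoxb. It was 4.79 in Hoxc and 5.12 in Hoxd. Over all genes the median was 6.79. The nearest genes outside the limit were Hoxa11 (5.64), Hoxb9 (5.57) and Hoxd12 (5.56), and the nearest inside were Hoxb1 (5.90), Hoxc4 (6.148) and Hoxb6 (6.149). The counts by cluster depend on the limit. With the lower quartile of all genes (5.05) as the limit, Hoxa11, Hoxb9, Hoxc13, Hoxd1, Hoxd8, Hoxd9 and Hoxd12 also lay above it. With the 99th percentile of the receptor genes (6.50), Hoxb1, Hoxb6, Hoxb8, Hoxc4 and Hoxc6 no longer did.

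The array values were also counted by position within the cluster. Paralogs 1 to 8, the anterior and central genes, were above the dim reference in 14 of 18 cases, with a median of 6.89. Paralogs 9 to 13, the posterior genes at the other end of each cluster, were above it in 3 of 15 cases, with a median of 5.35. The 3 were Hoxa10, Hoxa13 and Hoxc9. Among paralogs 1 to 8, all 5 measured Hoxa genes (7.29 to 8.59) and all 7 measured Hoxb genes (5.90 to 8.37) were above it, against 2 of 4 Hoxc genes and 0 of 2 Hoxd genes. Among paralogs 9 to 13 it was 2 of 3 Hoxa, 0 of 2 Hoxb, 1 of 5 Hoxc and 0 of 5 Hoxd genes. The 2 sets of paralogs thus differ in their make-up by cluster, and the pooled counts do not separate position from cluster. The plot of array values by cluster and paralog number shows the high block at the low numbers of Hoxa and Hoxb and the high value of Hoxa10, whose nearest measured neighbours in the cluster were Hoxa6 and Hoxa11.

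**Figure D1:**
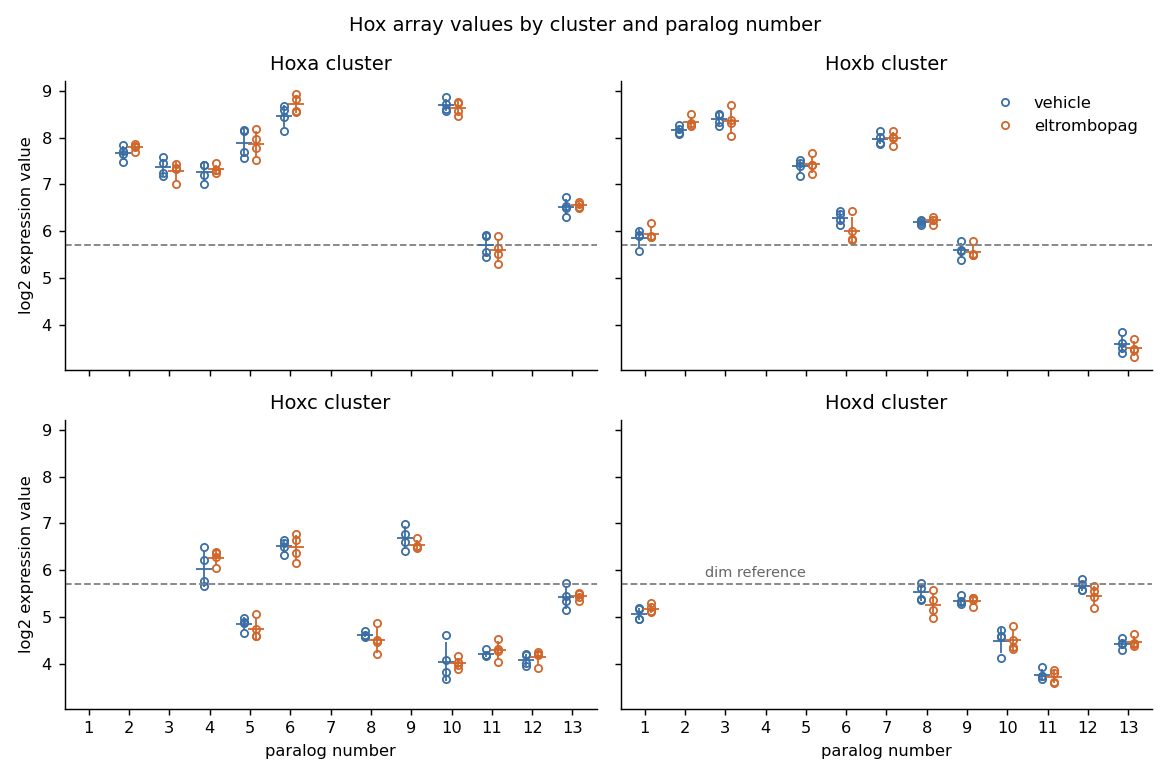
Log2 expression values (y axis) of 33 Hox genes by paralog number (x axis), 1 panel per cluster; circles are single arrays (blue vehicle, orange eltrombopag, 4 each), horizontal ticks with bars are group means ± SD, and the dashed line is the dim reference at 5.69. The means of Hoxa and Hoxb genes of paralogs 1 to 8 over all arrays lie above the line, Hoxd means lie below it, and vehicle and eltrombopag arrays overlap for every gene.

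The same paralog number was high in one cluster and low in another. At number 10, the mean was 8.66 for Hoxa10, 4.49 for Hoxd10 and 4.03 for Hoxc10. At number 5 it was 7.87 for Hoxa5, 7.40 for Hoxb5 and 4.79 for Hoxc5. At number 13 it was 6.54 for Hoxa13, 5.43 for Hoxc13, 4.44 for Hoxd13 and 3.53 for Hoxb13. All 3 measured genes of paralog 6 (Hoxa6, Hoxb6 and Hoxc6) were above the dim reference. For paralogs 11 and 12 the count was 0 of 3 and 0 of 2.

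Of the Hox genes, none passed when eltrombopag was set against vehicle. In limma, 0 of 33 passed at an adjusted p under 0.05, where 0% of all 19505 genes passed, and the adjusted p was 0.99978 for each Hox gene. An unadjusted p under 0.05 was reached by 0 of 33, against 3.33% of all genes. With the replicate number as a block, 2 of 33 reached it, against 4.63% of all genes, and 0 passed adjustment. The groups of 4 arrays failed to overlap for 0 of 33, against 2.12% of all genes. With eltrombopag 16 Hox genes had higher and 17 had lower values (median log2 difference -0.0029). Of all genes, 52.3% had higher values, with a median of 0.0071. In bulk samples such as these, fewer cells of a type and less RNA per cell cannot be told apart.

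The intervals of the Hox differences were about as narrow as those of all genes. The 95% interval of the log2 difference lay within 2-fold in either direction for 33 of 33 Hox genes, against 98.7% of all genes. It lay within 1.5-fold for 31 of 33, against 88% of all genes. Hoxb6 (-0.60 to 0.045) and Hoxc4 (-0.16 to 0.63) were the exceptions. The intervals are not adjusted over genes and bound array values. For the 16 genes at or below the dim reference, how far the array values follow the transcript is not known. The median absolute difference was 0.070 for the Hox genes and 0.083 for all genes, and the median SE was 0.12 and 0.13.

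**Figure D2:**
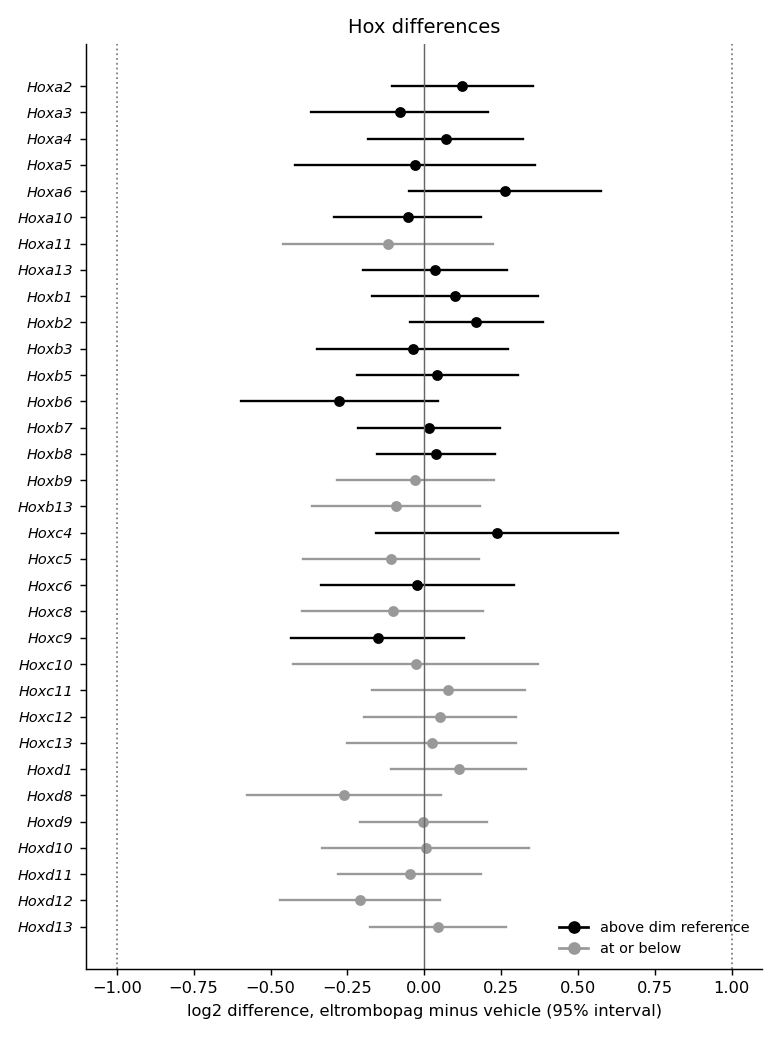
Log2 difference of each Hox gene (x axis, eltrombopag minus vehicle, 4 arrays each) with its 95% interval from limma; genes run down the y axis by cluster and paralog number, black above and grey at or below the dim reference. Every interval crosses 0 and stays inside the dotted lines at a 2-fold difference.

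By cluster, the median log2 difference was 0.0012 for Hoxa (4 higher, 4 lower), 0.015 for Hoxb (5 higher, 4 lower), -0.022 for Hoxc (4 higher, 5 lower) and -0.0029 for Hoxd (3 higher, 4 lower). The median value of a cluster's members on each array was set side by side as well. For Hoxa it was 7.50 ± 0.076 (SD, n = 4) in the vehicle arrays and 7.55 ± 0.045 (SD, n = 4) in the eltrombopag arrays. For Hoxb it was 6.30 ± 0.12 (SD, n = 4) and 6.28 ± 0.11 (SD, n = 4). For Hoxc it was 4.85 ± 0.14 (SD, n = 4) and 4.74 ± 0.23 (SD, n = 4), and for Hoxd 5.06 ± 0.12 (SD, n = 4) and 5.13 ± 0.13 (SD, n = 4). In each cluster the ranges of the 2 groups overlapped.

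**Figure D3:**
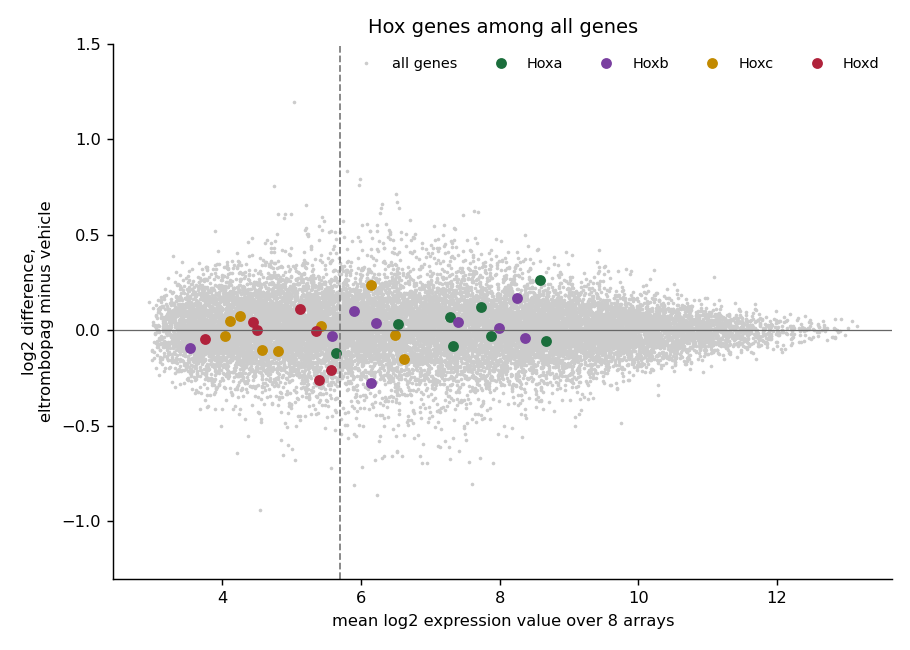
Log2 difference (y axis, eltrombopag minus vehicle) against the mean log2 expression value over 8 arrays (x axis) for 19505 genes in grey, with the Hox genes coloured by cluster and the dim reference as a dashed line. The Hox differences, from -0.28 to 0.26, lie inside the grey cloud at every level.

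Hoxa10, a posterior gene whose excess is known to expand myeloid progenitors, had the highest mean of the 33. Its log2 values were 8.86, 8.71, 8.58 and 8.61 with vehicle and 8.46, 8.74, 8.76 and 8.58 with eltrombopag. The groups overlapped, with the highest value in vehicle array 1 and the lowest in eltrombopag array 1. The log2 difference was -0.054 (SE 0.11). Hoxa13, a gene of the limb tips and the urogenital tract, had 6.50, 6.31, 6.53 and 6.73 with vehicle and 6.52, 6.58, 6.49 and 6.62 with eltrombopag, a difference of 0.034 (SE 0.11). Its 4 eltrombopag values lay inside the vehicle range.

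Hoxa6 was the Hox gene with the largest positive difference. It stood at 8.13, 8.43, 8.59 and 8.68 with vehicle and at 8.57, 8.83, 8.55 and 8.93 with eltrombopag. Vehicle array 1 was the lowest and eltrombopag array 4 the highest, and the 2 groups shared the range between 8.55 and 8.68. The log2 difference was 0.26 (SE 0.14, unadjusted p 0.0904 in limma), and it was higher in 3 of the 4 replicate numbers. Leaving out arrays moved it from 0.15 (without vehicle array 1) to 0.36 (without both arrays numbered 3), and without vehicle array 4 it was 0.34 (unadjusted p 0.0471, adjusted p 0.99987 in limma). Its neighbour Hoxa5, a gene linked to the choice between myeloid and erythroid fates, had 7.56, 7.69, 8.16 and 8.13 with vehicle and 7.51, 7.97, 7.77 and 8.17 with eltrombopag. In both groups array 1 was the lowest, and the difference was -0.031 (SE 0.18).

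The remaining Hoxa genes above the dim reference were Hoxa2, Hoxa3 and Hoxa4. Hoxa2, which patterns the hindbrain, had 7.72, 7.84, 7.64 and 7.47 with vehicle and 7.80, 7.81, 7.85 and 7.69 with eltrombopag. Hoxa3, needed for the thymus and parathyroid glands, had 7.24, 7.18, 7.57 and 7.45 and 6.995, 7.33, 7.36 and 7.44. Hoxa4 had 7.41, 6.999, 7.21 and 7.40 and 7.45, 7.24, 7.31 and 7.30. In each of them the groups overlapped, and the log2 differences were 0.12 (SE 0.10), -0.079 (SE 0.13) and 0.070 (SE 0.11). The eltrombopag values of Hoxa2 and Hoxa4 spread less than the vehicle values, which was not tested.

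Among the Hoxb genes, Hoxb3 and Hoxb2 had the highest array values. Hoxb3, which acts with Hoxb4 in stem cell growth, had 8.33, 8.50, 8.24 and 8.49 with vehicle and 8.30, 8.70, 8.03 and 8.37 with eltrombopag. Number 2 was the highest and number 3 the lowest in both groups, and the difference was -0.038 (SE 0.14). Hoxb2, a hindbrain gene, had 8.27, 8.08, 8.10 and 8.19 with vehicle and 8.50, 8.26, 8.24 and 8.31 with eltrombopag. It was the single Hox gene that was higher with eltrombopag in all 4 replicate numbers, but vehicle array 1 (8.27) lay above 2 eltrombopag arrays. The difference was 0.17 (SE 0.098, unadjusted p 0.112 in limma). Of all genes, 12.6% differed in the same direction in all 4 numbers, against 2 of 33 Hox genes.

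Hoxb5, known from reporter mice as a marker of long-term stem cells, had 7.18, 7.51, 7.45 and 7.39 with vehicle and 7.23, 7.66, 7.40 and 7.41 with eltrombopag. Array 1 was the lowest and array 2 the highest in each group. Its difference was 0.043 (95% interval -0.22 to 0.30). Hoxb7 had 8.13, 7.89, 7.87 and 8.01 with vehicle and 8.01, 8.13, 7.83 and 7.998 with eltrombopag, a difference of 0.015 (95% interval -0.21 to 0.25). Hoxb8, used in excess to hold myeloid progenitors in an immature state, had 6.18, 6.22, 6.24 and 6.13 and 6.13, 6.24, 6.30 and 6.24. Its arrays lay within 0.17 of one another, and the difference was 0.038 (95% interval -0.15 to 0.23).

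Hoxb6 had the largest negative difference and the smallest p of the 33. Its log2 values were 6.13, 6.23, 6.44 and 6.36 with vehicle and 5.82, 5.80, 5.998 and 6.42 with eltrombopag. In numbers 1 to 3 the eltrombopag array was below every vehicle array, and eltrombopag array 4 lay among the vehicle values. The log2 difference was -0.28 (SE 0.14, unadjusted p 0.0844 in limma). Without eltrombopag array 4 it was -0.41 (unadjusted p 0.00555, adjusted p 0.99991 in limma), and without eltrombopag array 2 it was -0.21. In the fit without eltrombopag array 4, 1 of 33 Hox genes and 685 of all 19505 genes had an unadjusted p under 0.05. Hoxb1, the gene of the fourth hindbrain segment, had 6.01, 5.89, 5.92 and 5.57 with vehicle and 6.17, 5.88, 5.86 and 5.87 with eltrombopag, close above the dim reference. Eltrombopag array 1 was the highest, and the difference was 0.099 (SE 0.12).

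Only 3 Hoxc genes were above the dim reference. Hoxc9 had 6.98, 6.42, 6.61 and 6.77 with vehicle and 6.68, 6.52, 6.49 and 6.48 with eltrombopag, and Hoxc6 had 6.63, 6.58, 6.32 and 6.49 and 6.76, 6.65, 6.37 and 6.15. The groups overlapped in both, with differences of -0.15 (SE 0.13) and -0.022 (SE 0.14). Hoxc4, known from lymphoid cells, had 6.49, 5.65, 5.77 and 6.21 with vehicle and 6.04, 6.28, 6.37 and 6.38 with eltrombopag. The vehicle arrays were spread more widely than the eltrombopag arrays, with the highest of all 8 in vehicle array 1. The difference of 0.24 (SE 0.18) was 0.39 without vehicle array 1 (unadjusted p 0.0302, adjusted p 0.996 in limma). It was 0.46 without both arrays numbered 1 (unadjusted p 0.0166, adjusted p 0.99974 in limma) and 0.11 without both numbered 2, the ends of its range over the fits that left out arrays. Leaving out vehicle array 2 or 3 alone lowered it by more than 1.5 times as well.

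The 16 genes at or below the dim reference were 1 Hoxa, 2 Hoxb, 6 Hoxc and 7 Hoxd genes. Their differences ran from -0.26 to 0.11, with 6 higher and 10 lower. The 5 of them with the smallest p were Hoxd8, Hoxd12, Hoxd1, Hoxc5 and Hoxc8. Hoxd8 had 5.38, 5.37, 5.62 and 5.73 with vehicle and 5.56, 4.98, 5.36 and 5.15 with eltrombopag, a difference of -0.26 (unadjusted p 0.0966 in limma). It was -0.36 without eltrombopag array 1 (unadjusted p 0.0259, adjusted p 0.99999 in limma). Over all fits that left out arrays it ran from -0.41 (without both arrays numbered 1) to -0.15 (without both numbered 4), and leaving out eltrombopag array 2 alone also brought it nearer to 0 by more than 1.5 times. Hoxd12, a limb gene, had 5.58, 5.69, 5.81 and 5.57 and 5.20, 5.65, 5.42 and 5.55, a difference of -0.21 (unadjusted p 0.105 in limma). It was lower with eltrombopag in all 4 numbers, by little in numbers 2 and 4, and the groups overlapped.

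Hoxd1 had 5.18, 4.96, 5.17 and 4.96 with vehicle and 5.12, 5.09, 5.29 and 5.20 with eltrombopag, and Hoxc5 had 4.65, 4.90, 4.87 and 4.98 and 5.06, 4.58, 4.59 and 4.74. Hoxc8, a gene of the trunk skeleton, had 4.61, 4.70, 4.59 and 4.57 and 4.87, 4.51, 4.47 and 4.20. Their differences were 0.11, -0.11 and -0.10, and each pair of groups overlapped. The Hoxc5 difference was -0.28 without both arrays numbered 1 (unadjusted p 0.0260, adjusted p 0.99974 in limma) and -0.038 without both numbered 2. Hoxa11os, the antisense transcript of the uterus and limb gene Hoxa11 (mean 5.64, difference -0.12), was dim on its own probe set, at a mean of 5.02 with a difference of -0.038. Hoxd3os1, an antisense transcript of the Hoxd cluster, was lower still, at 3.37 with a difference of 0.12. Both transcripts were chosen after their values were seen. The other 11 dim Hox genes had means from 3.53 (Hoxb13) to 5.64 (Hoxa11) and differences from -0.12 (Hoxa11) to 0.078 (Hoxc11).

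The replicate numbers were compared as well, with treatment as a term. In limma's F-test across the 4 numbers, 0 of 33 Hox genes passed at an adjusted p under 0.05, against 0.21% of all genes. At an unadjusted p under 0.05 there were 2 of 33, Hoxa5 and Hoxd10, against 10.2% of all genes. The means of numbers 1 to 4 were 7.54, 7.83, 7.97 and 8.15 for Hoxa5 (adjusted p 0.480 in limma), a range of 0.61 beside its treatment difference of -0.031. For Hoxd10 they were 4.76, 4.22, 4.47 and 4.53 (adjusted p 0.468 in limma), a range of 0.54 beside a treatment difference of 0.0044. Each range is the highest minus the lowest of 4 means of 2 arrays, while the treatment difference compares 2 means of 4 arrays. A range of this kind tends to be the larger through noise alone, and these 2 genes were named for their small p. The sizes are therefore not a like comparison. The F-test treats the 2 arrays of a number as independent. For Hoxb3 the number means were 8.31, 8.60, 8.14 and 8.43, with an adjusted p of 0.517 in limma.

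**Figure D4:**
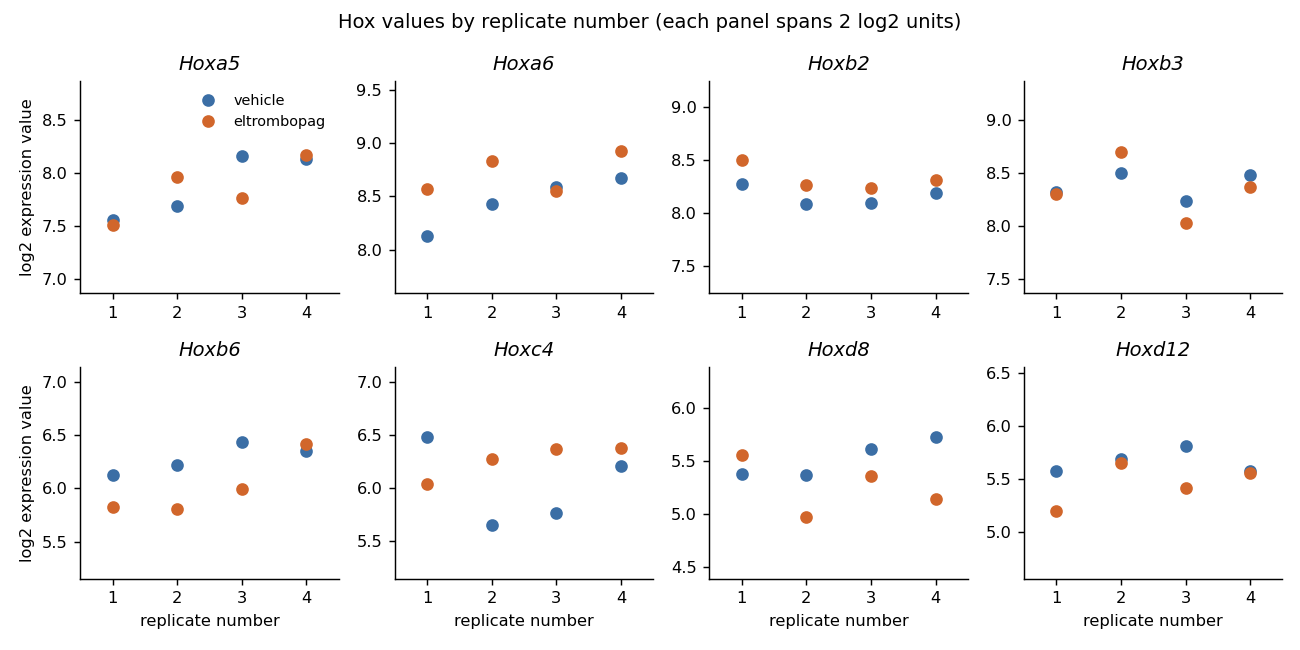
Log2 expression values (y axis) of 8 Hox genes by replicate number (x axis), blue for vehicle and orange for eltrombopag, 1 point per array. In Hoxa5 both groups are lowest at number 1, in Hoxb3 both are highest at number 2 and lowest at number 3, in Hoxb2 the eltrombopag point is above the vehicle point at each number, and in Hoxb6 it is below at numbers 1 to 3.

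A list of 10 homeobox genes of the PBX and MEIS cofactor families and their relatives, Tgif1 and Tgif2 among them, was measured too. In limma 0 of 10 were called, against 0% of all genes. An unadjusted p under 0.05 was reached by 1 of 10, against 3.33% of all genes. On this list 5 of 10 measured members had higher values and 5 lower ones (median log2 difference 0.0068). Meis1, the MEIS protein most tied to blood stem cells, had 10.40, 10.47, 10.63 and 10.72 with vehicle and 10.36, 10.43, 10.81 and 10.72 with eltrombopag, a difference of 0.024 (95% interval -0.26 to 0.31). Array 4 of both groups and eltrombopag array 3 were high, and the groups overlapped. Meis2 had 6.16, 5.68, 6.43 and 5.54 and 5.82, 5.63, 6.02 and 5.83, a difference of -0.13 (SE 0.19).

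Pbx3, a PBX cofactor known in Hox-driven leukemia, had the smallest p on the list of cofactors and relatives. Its log2 values were 6.78, 6.67, 6.79 and 7.01 with vehicle and 7.21, 6.97, 7.44 and 7.38 with eltrombopag. It was higher in all 4 numbers, but vehicle array 4 (7.01) lay above eltrombopag array 2 (6.97). The log2 difference was 0.43 (SE 0.12, unadjusted p 0.00574, adjusted p 0.99978 in limma), so it did not pass.

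Regulators that keep Hox clusters open or closed did not pass in limma either, with 0 of 17 activators and 2 of 18 repressors at an unadjusted p under 0.05, against 3.33% of all genes. Among the trithorax-side activators 12 of 17 measured members had higher values and 5 lower ones (median log2 difference 0.063). Kdm6b, a demethylase of the Polycomb mark, had 10.32, 10.65, 10.55 and 10.75 with vehicle and 10.66, 10.73, 10.73 and 10.66 with eltrombopag, a difference of 0.13 (SE 0.11). Ash2l, a core subunit of the MLL complexes, differed by 0.10 (SE 0.092). Kmt2a was not analysed here.

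Among the Polycomb-side repressors 9 of 18 measured members had higher values and 9 lower ones (median log2 difference 0.00084). Bmi1, a ring finger subunit needed for stem cell self-renewal, had 8.80, 8.87, 8.73 and 8.72 with vehicle and 8.50, 8.79, 8.20 and 8.18 with eltrombopag. It was lower in all 4 numbers, with eltrombopag arrays 3 and 4 lowest, while eltrombopag array 2 lay among the vehicle values. Its difference was -0.37 (SE 0.14, unadjusted p 0.0231, adjusted p 0.99978 in limma). Pcgf2, its paralog, had 7.72, 7.55, 7.46 and 7.56 and 7.38, 7.37, 7.41 and 7.29, and these groups did not overlap, as was so for 2.12% of all genes. The difference of -0.21 (SE 0.093, unadjusted p 0.0442, adjusted p 0.99978 in limma) did not pass. Ezh2, the methyltransferase of the Polycomb mark, had 9.65, 9.62, 9.55 and 9.53 and 9.61, 9.58, 9.56 and 9.41, a difference of -0.049 (95% interval -0.25 to 0.15).

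**Figure D5:**
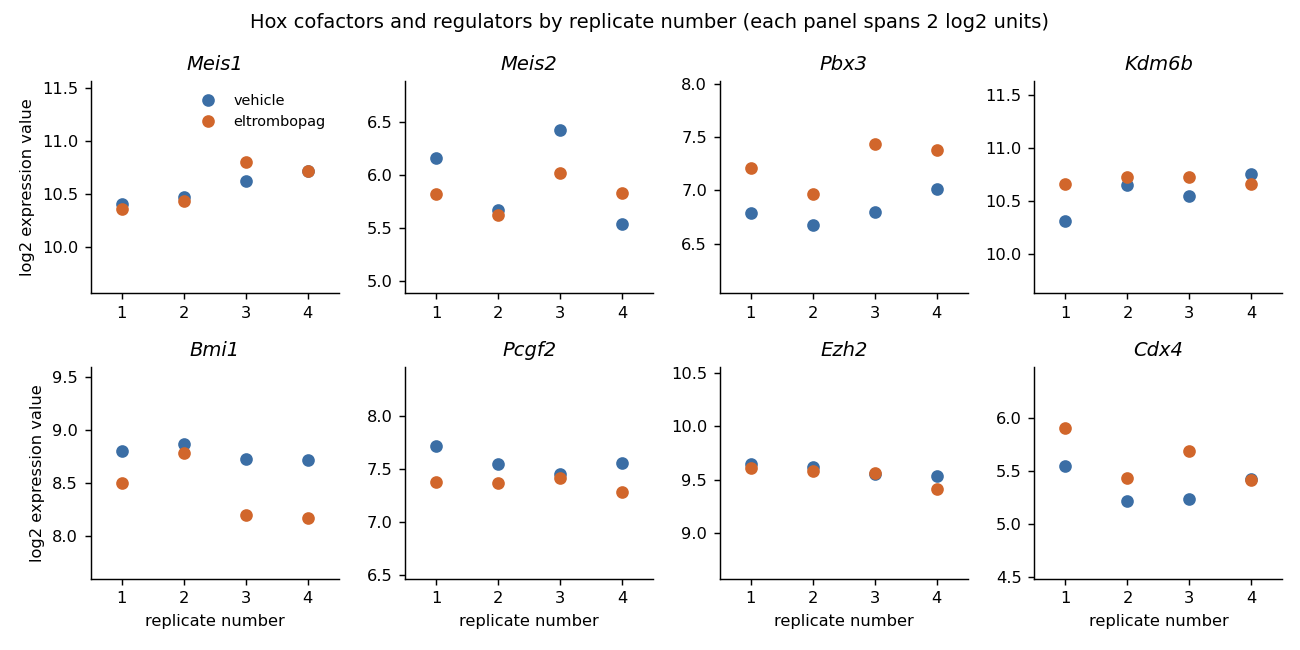
Log2 expression values (y axis) of 8 Hox cofactors and regulators by replicate number (x axis), blue for vehicle and orange for eltrombopag, 1 point per array. Pbx3 is higher and Bmi1 and Pcgf2 are lower with eltrombopag at each number, and none of the 3 passed the test over all genes.

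Other homeobox genes and the genes beside the clusters gave no call in limma, where 0% of all genes passed. On the 2 homeobox lists 0 of 13 and 0 of 11 had an unadjusted p under 0.05 in limma, against 3.33% of all genes. The groups did not overlap for 0 of the 13 and 1 of the 11, against 2.12% of all genes. Of the upstream Cdx genes and their relatives outside the clusters, 9 of 13 measured members had higher values and 4 lower ones (median log2 difference 0.037). Cdx4, an activator of Hox genes in the blood of embryos, had 5.55, 5.21, 5.23 and 5.42 with vehicle and 5.91, 5.43, 5.68 and 5.41 with eltrombopag, with a mean below the dim reference. Gbx2 differed by 0.32 (SE 0.21). A further list of homeobox genes outside the clusters held genes known from blood and others, such as Nanog and Msx1. On it 4 of 11 measured members had higher values and 7 lower ones (median log2 difference -0.064). Lbx2, whose mean of 5.70 lay close above the dim reference, differed by -0.15 (SE 0.11). Hhex, needed for early blood and liver, differed by 0.12 (SE 0.10).

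For genes flanking the 4 clusters, 9 of 17 measured members had higher values and 8 lower ones (median log2 difference 0.013). Above the dim reference were 13 of 17 of them. Cbx5, the heterochromatin protein HP1 alpha beside the Hoxc cluster, had 10.51, 10.57, 10.58 and 10.68 with vehicle and 10.40, 10.34, 10.52 and 10.32 with eltrombopag, a difference of -0.19 (SE 0.092). Smug1, a DNA glycosylase near it, differed by -0.18 (SE 0.12). For targets linked to HOXA9 and MEIS1, 7 of 17 measured members had higher values and 10 lower ones (median log2 difference -0.022). Erg, a stem cell transcription factor, differed by -0.13 (SE 0.091) and Igf1 by -0.15 (SE 0.14). For both lists the count at an unadjusted p under 0.05 in limma was 0 of 17, against 3.33% of all genes.

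The sorted cells were checked against their markers. Kit stood at 12.89 over all arrays, Hlf at 11.49, Mecom at 10.36 and Slamf1 (CD150) at 7.04, and Cd48, which the sort excludes, at 6.08. The 9 other measured genes of the stem cell list were above the dim reference, as was Cd48. On that list 5 of 10 were higher and 5 lower with eltrombopag, and Cd48 (0.25) and Procr (0.22) had the smallest p between the groups. Single lymphoid markers had means from 3.73 (Cd3g) to 8.55 (Nkg7), with 3 of 9 above the dim reference. The mean level of lymphoid markers ran from 5.47 to 5.64 with vehicle and 5.52 to 5.61 with eltrombopag. That of erythroid markers ran from 6.95 to 7.22 with vehicle and 6.90 to 7.40 with eltrombopag, that of megakaryocyte markers from 7.03 to 7.38 with vehicle and 7.12 to 7.49 with eltrombopag, that of neutrophil and monocyte markers from 6.26 to 6.83 with vehicle and 6.33 to 6.75 with eltrombopag, and that of stromal and endothelial markers from 6.13 to 6.24 with vehicle and 6.02 to 6.16 with eltrombopag. Above the dim reference were 6 of 6, 7 of 9, 7 of 10 and 6 of 10 of these markers. In each list the ranges of the 2 groups overlapped. Higher with eltrombopag were 5 of 6 erythroid, 6 of 9 megakaryocyte, 4 of 10 neutrophil and monocyte, 5 of 9 lymphoid and 2 of 10 stromal and endothelial markers, against 52.3% of all genes. In limma 0 of the 54 markers passed, and 3 (Epor, Ppbp and Tagln) had an unadjusted p under 0.05, against 3.33% of all genes. Tagln, a gene of smooth muscle, had 6.26, 6.11, 6.13 and 6.34 with vehicle and 5.29, 5.80, 5.86 and 5.67 with eltrombopag, and these groups did not overlap (unadjusted p 0.00175, adjusted p 0.99978 in limma). The part of these cells in the Hox values was not tested. The 2 genes of smallest p in each list were Epor (0.34) and Slc4a1 (0.14), Ppbp (0.50) and Pf4 (0.26), Mpo (0.29) and Itgam (-0.19), Cd79a (0.20) and Cd3g (0.16), and Tagln (-0.55) and Col1a2 (-0.25).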

How the data were processed

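The deposited values were log2 expression values for 22206 probe sets on each of 8 arrays. The tools credited in the submitters' processing notes are RMA, oligo and limma, with no version. RMA corrects background, gives every array one distribution and summarises the probes, so a global change in RNA content cannot show in these values. Per the labels' protocols, about 10 ng of RNA was amplified from the 3′ end and labelled with biotin. The genome build was not given in the sources used here.

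The platform annotation gave 19572 probe sets 1 gene symbol, and the probe set with the highest mean stood for each of 19505 genes. Treatment was tested with limma (version 3.58.1, R 4.3.3; lmFit, then eBayes), two-sided, with group as the only term and Benjamini-Hochberg adjustment over all genes. The F-test across replicate numbers had group as a term. Both were run on simulated data with independent noise and shifts between the 2 groups only. The simulation held no differences between replicate numbers, so whether the F-test finds them was not tested. The members and lists were chosen with earlier results of these data known. Every Hox gene above the dim reference was given by array, with the 5 others of smallest p, 2 genes of smallest p per list, and Meis1, Bmi1 and Ezh2.

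Same-numbered arrays deviated together from their group means, with correlations over probe sets of 0.241, 0.294, 0.192 and 0.142. The labels state no pairing, so pairing by number rests on the values alone. The printed differences, SEs, intervals and p-values come from the fit without the block, unless the block is named. The alternatives were this replicate block, a filter on dim genes, 2 other scalings, mean probe sets, a trended robust prior, other dim limits, and leaving out arrays. The number of arrays limits the precision. Promoter windows came from RefSeq (GRCm38.p6), and list symbols were matched by name.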

Additional observations from a re-analysis of the deposited data

Results flagged for a closer look

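In 61 genes, each with its 2 groups of 4 arrays (122 groups), 4 groups held an array well apart from the rest. About 6.1 are given by chance, which picks roughly 1 group in 20. Hoxb1 had 6.17 in eltrombopag array 1, and the remaining eltrombopag arrays lay between 5.86 and 5.88 (gap over range 0.932). Hoxb9 had 5.78 in eltrombopag array 3, with the rest between 5.48 and 5.50 (0.938). Of the genes outside the clusters, Pf4, a platelet chemokine, had 8.70 in eltrombopag array 2, with the rest between 9.15 and 9.22 (0.864). Cd79a, a B cell receptor subunit, had 6.38 in eltrombopag array 4, with the rest between 5.83 and 5.91 (0.861).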

How the results depend on the processing

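The count of called genes was 0 among all genes and 0 among the 33 Hox genes in each of 18 alternatives, every fit that left out arrays included. The replicate block changed no call: it called 0 genes, with a lowest adjusted p of 0.984 in limma. At an unadjusted p under 0.05 it gave 904 genes in place of 650, and 2 Hox genes in place of 0, Hoxa6 (p 0.0464) and Hoxb6 (p 0.0439) in limma. For fits that left out arrays, Hox p-values are printed only where they fell under 0.05, so they are picked extremes. Without both arrays numbered 1, 3 of 33 Hox genes and 752 of all 19505 genes fell under it. The filter to genes above the median held 10 Hox genes. The F-test across numbers called 41 genes, 41 with that filter and 39 with quantile normalization, with 0 Hox genes each time. The number of Hox genes above the dim limit was 10 with the median of all genes as the limit, since that limit is higher (17 at the main limit). It was 12 with the 99th percentile and 24 with the lower quartile. It was 15 when a gene had to lie above the dim limit on all 8 arrays at once.

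Of 33 Hox differences, 15 kept their sign in all settings that held them. The Hoxd10 difference turned to -0.0076 with quantile normalization and to -0.0055 with equal medians. Leaving out arrays turned 18, whose ranges were Hoxa10 (-0.13 to 0.060), Hoxb3 (-0.15 to 0.069), Hoxb7 (-0.059 to 0.070), Hoxa5 (-0.14 to 0.088), Hoxb5 (-0.036 to 0.11), Hoxa3 (-0.16 to 0.016), Hoxa4 (-0.016 to 0.13), Hoxa13 (-0.045 to 0.10), Hoxc6 (-0.12 to 0.089), Hoxb9 (-0.17 to 0.059), Hoxc13 (-0.082 to 0.12), Hoxd9 (-0.034 to 0.081), Hoxd10 (-0.12 to 0.080), Hoxd13 (-0.012 to 0.092), Hoxc11 (-0.0058 to 0.19), Hoxc12 (-0.035 to 0.13), Hoxc10 (-0.20 to 0.16) and Hoxd11 (-0.13 to 0.043). Of 28 other named genes 4 turned: Meis2 (-0.27 to 0.034), Meis1 (-0.051 to 0.098), Igf1 (-0.25 to 0.026) and Cd79a (-0.017 to 0.33). The cause was not tested. No direction is claimed for these genes.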
